A study of Mus musculus with 9 samples.

Results

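The 10 genes described here encode receptors of the TNF receptor superfamily, and their transcripts were measured in the 3 dendritic cell (DC) subsets of the resting mouse spleen. They were chosen by name as the TNF, lymphotoxin, death and BAFF/APRIL receptors (Tnfrsf1a, Tnfrsf1b, Ltbr, Fas, Tnfrsf11a, Tnfrsf13b, Tnfrsf13c, Tnfrsf10b, Tnfrsf14 and Tnfrsf21), out of 39179 genes in the table of counts. All 10 matched a single row and all 10 passed the filter on low counts, which left 13819 genes to test.

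RNA was sequenced from conventional DC of type 1 (cDC1, CD8+), conventional DC of type 2 (cDC2, CD8-) and plasmacytoid DC (pDC) sorted from spleens of C57BL/6J mice at steady state, with no treatment. Each subset had 3 libraries, each from a pool of 15 to 17 mice, and the libraries with the same number in the 3 subsets carry the same date code. By the general methods, mice were 6 to 12 weeks old. The pDC are described by intermediate CD11c and high CD317, and cDC1 and cDC2 by high CD11c and low CD317 with opposite staining for CD8 and CD11b. Cells bearing T cell, B cell, granulocyte and erythroid antigens were depleted first, and the stain used for sorting included CD49b, a marker of natural killer (NK) cells, and CD45RA. The study used these libraries as the resting state of the DC subsets whose responses to STING agonists it examined, and the comparisons here ask how the subsets differ before stimulation.

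Receptors of this superfamily are membrane proteins with cysteine-rich domains outside the cell that bind trimeric ligands of the TNF family. One branch carries a cytoplasmic death domain and can recruit FADD and caspase-8 or TRADD and RIPK1. The other branch binds TRAF adaptors directly and feeds the canonical and alternative NF-κB pathways. In the spleen, the lymphotoxin β receptor supports the upkeep of conventional DC, and the receptors for BAFF and APRIL are best known from the survival and maturation of B cells.

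The members split into opposite patterns. Tnfrsf13b and Tnfrsf13c, the BAFF/APRIL receptors, were highest in pDC, intermediate in cDC2 and lowest in cDC1. Fas, Tnfrsf21 and Tnfrsf11a were 3.72-fold to 7.26-fold lower in pDC than in cDC1. Tnfrsf1a and Ltbr differed less. Tnfrsf1b, which encodes TNF receptor 2, was 2.42-fold higher in cDC2 than in cDC1 and 3.33-fold lower in pDC than in cDC2.

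The RefSeq promoters of the members whose levels set the subsets apart in different directions are shown, to place the letters upstream of their start sites beside the values. A promoter window was found for 9 of the 10 members (GRCm38.p6), and the 250 bases before the start site were searched on both strands for GAGGAAGT (the core bound by PU.1 and Spi-B), CAGGTG (an E-box bound by E proteins such as TCF4), the IRF element (GAAA, 2 bases of any kind and GAAA) and the NF-κB consensus. Each sequence reads 5′ to 3′ on the strand of its gene and ends at the base before the start site. Capitals mark the motif matches, none of which overlapped another. They lie at chr11:61126505-61126754 on the plus strand, chr15:82224381-82224630 on the minus strand, chr4:145246871-145247120 on the minus strand and chr17:43016305-43016554 on the plus strand, in the order printed.
Tnfrsf13b: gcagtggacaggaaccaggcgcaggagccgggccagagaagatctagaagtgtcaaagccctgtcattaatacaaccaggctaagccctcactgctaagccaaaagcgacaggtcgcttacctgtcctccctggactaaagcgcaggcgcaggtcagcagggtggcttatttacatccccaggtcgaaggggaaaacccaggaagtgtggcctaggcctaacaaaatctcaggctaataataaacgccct
Tnfrsf13c: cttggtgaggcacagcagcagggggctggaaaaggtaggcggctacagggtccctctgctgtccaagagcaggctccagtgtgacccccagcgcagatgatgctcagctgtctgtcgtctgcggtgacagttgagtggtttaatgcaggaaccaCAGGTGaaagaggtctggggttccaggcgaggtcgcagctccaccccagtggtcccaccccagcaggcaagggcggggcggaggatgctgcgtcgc
Tnfrsf1b: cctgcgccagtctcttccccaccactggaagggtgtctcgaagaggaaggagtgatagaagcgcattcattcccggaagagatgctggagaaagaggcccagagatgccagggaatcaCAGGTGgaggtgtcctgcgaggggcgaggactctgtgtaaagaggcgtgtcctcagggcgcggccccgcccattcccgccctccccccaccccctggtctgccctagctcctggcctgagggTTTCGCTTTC
Tnfrsf21: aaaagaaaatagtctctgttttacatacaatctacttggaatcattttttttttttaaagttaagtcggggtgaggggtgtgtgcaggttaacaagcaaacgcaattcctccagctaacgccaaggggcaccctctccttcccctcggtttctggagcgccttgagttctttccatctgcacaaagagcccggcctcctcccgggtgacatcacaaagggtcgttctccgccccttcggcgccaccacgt

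Tnfrsf13b and Tnfrsf13c, which shared their order of levels, did not share a match. The Tnfrsf13c window held the E-box letters from 96 to 91 bases before the start site and the Tnfrsf13b window held none of the motifs searched. The Tnfrsf1b window held the E-box letters from 132 to 127 bases before the start site, and the IRF letters, on the opposite strand, in the last 10 bases. The window of Tnfrsf21 held none. Among the 9 member windows, 3 held the E-box letters (Tnfrsf1b, Tnfrsf11a and Tnfrsf13c), against 17.2% of 32851 windows of the same length, and 2 held the IRF letters (Tnfrsf1b and Tnfrsf14), against 2.98%. The PU.1 and Spi-B core and the NF-κB consensus were in 0 of the 9, and in 2.44% and 7.25% of all windows. The windows of Tnfrsf1a and Tnfrsf14, and the last bases of that of Tnfrsf11a, lie inside the spans of these genes in GENCODE M21, so the IRF match of Tnfrsf14 is not upstream of every annotated start. These matches describe letters and show no binding.

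Counts on genes summed to between 15806597 and 32453789 per library, and a floor of 3 counts corresponded to 0.0908 to 0.203 CPM (counts scaled to 1000000 per library, TMM-normalized), for counting error only. Summed markers followed the labels, at 3612 to 3982 CPM for the 6 cDC1 markers in cDC1, 1607 to 1727 for the 5 cDC2 markers in cDC2 and 9511 to 10681 for the 5 pDC markers in pDC, though the cDC2 markers also summed to 1100 to 1163 in pDC. Over the 9 libraries, markers of T cells summed to 14.8 to 51.0 CPM, those of neutrophils to 3.70 to 42.5 and those of erythroid cells to 29.1 to 59.6. The libraries of replicate 3 stood apart. They had the lowest total in each subset. Of genes expected at 10 to 20 counts, 22.2% were listed at 0 in cDC2 replicate 3 and 28.3% in pDC replicate 3, against 0.709% to 6.84% in the other 7 libraries. Summed CPM of 10 immediate-early and heat-shock genes was highest in replicate 3 of each subset, at 6178 in cDC1, 6001 in cDC2 and 3988 in pDC, where the other libraries ranged from 1564 to 3431. Member counts and calls that changed without the 3 libraries of this number are given beside the results. The part that these features play in the member values was not tested. In bulk RNA, fewer cells of a type and less RNA per cell cannot be told apart.

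**Figure D1:**
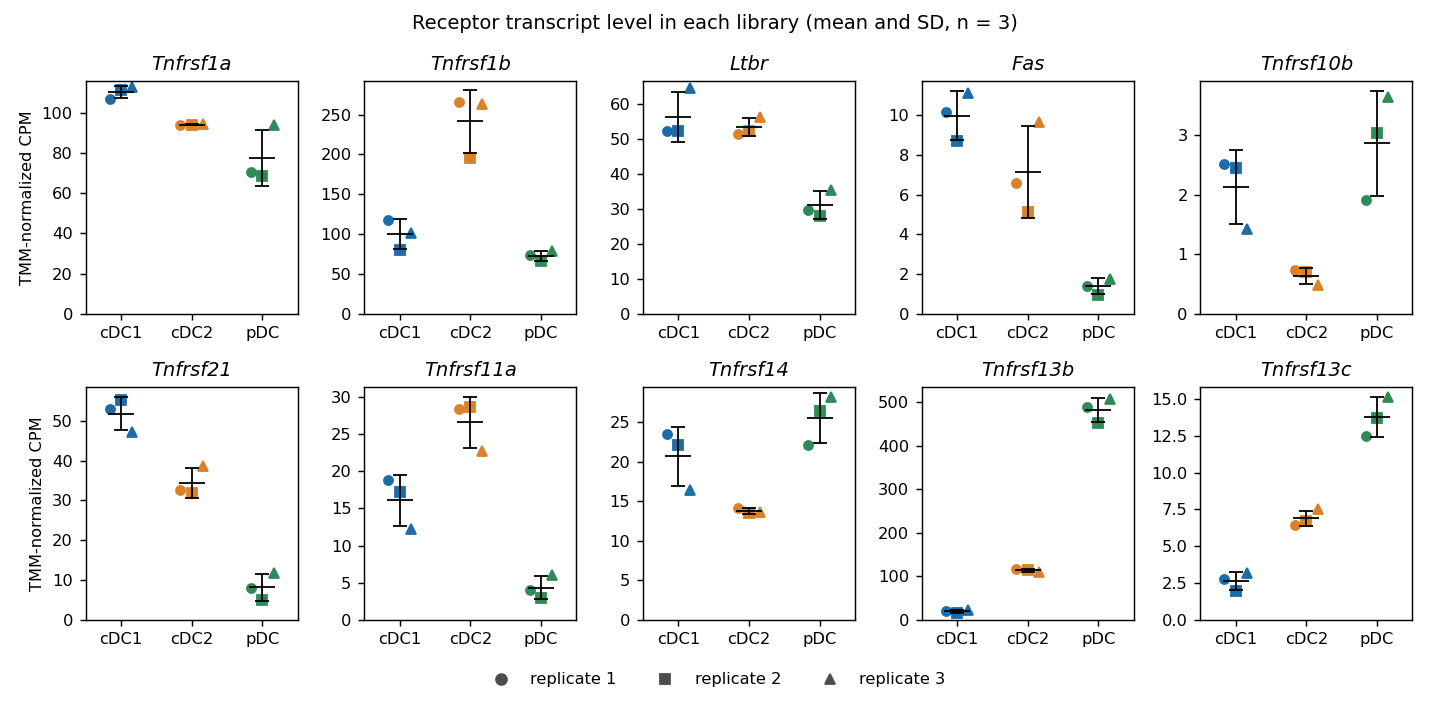
TMM-normalized CPM of the 10 receptor genes (vertical axes, each from 0) in cDC1, cDC2 and pDC. Points are single libraries with a symbol for each replicate number, and bars are the mean and SD of 3 libraries. Tnfrsf13b and Tnfrsf13c rise from cDC1 to pDC with no overlap between subsets, while the pDC libraries lie below all others for Fas, Tnfrsf21 and Tnfrsf11a.

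Tnfrsf13b (ENSMUSG00000010142, chr11:61126755-61149372 in GRCm38, plus strand) encodes TACI, a receptor for BAFF and APRIL, and had the widest range of the 10 members. It stood at 488, 452 and 506 CPM in pDC replicates 1, 2 and 3. It stood at 117, 115 and 109 CPM in cDC2 and at 19.2, 16.01 and 22.3 CPM in cDC1. The lowest pDC library lay above the highest cDC2 library, and the lowest cDC2 library above the highest cDC1 library. The level was 25.2-fold higher in pDC than in cDC1 (log2 fold change 4.65, SE 0.142, adjusted p = 3.35e-08) and 4.24-fold higher than in cDC2 (2.08, SE 0.126, adjusted p = 8.63e-07). In cDC2 it was 5.94-fold higher than in cDC1 (2.57, SE 0.130, adjusted p = 1.96e-06), and each of these held in 3 of 3 same-numbered pairs.

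Tnfrsf13c (ENSMUSG00000068105, chr15:82221743-82224369, minus strand) encodes the BAFF receptor, which binds BAFF and not APRIL. Its levels were far lower than those of Tnfrsf13b, at 12.5, 13.7 and 15.1 CPM in pDC, with 6.47, 6.68 and 7.49 in cDC2 and 2.80, 1.96 and 3.18 in cDC1. The subsets kept the same order as for Tnfrsf13b, with no overlap. Tnfrsf13c was 5.22-fold higher in pDC than in cDC1 (log2 fold change 2.38, SE 0.229, adjusted p = 1.80e-05). The difference was 1.00 on the log2 scale between pDC and cDC2 (SE 0.215, adjusted p = 0.00376) and 1.38 between cDC2 and cDC1 (SE 0.225, adjusted p = 0.00157).

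These receptors are also B cell genes, so B cell markers were read beside them. Of the 10 B cell markers, 7 had enough counts for a test, and 6 of these were higher in pDC than in cDC1, with 1 lower. Against cDC2, where Tnfrsf13b and Tnfrsf13c were also higher in pDC, 2 of the 7 markers were higher and 3 lower. Over all genes tested, 24.3% were higher and 24.4% lower in pDC than in cDC1, and 22.5% and 23.3% than in cDC2. The 10 B cell markers summed to 94.1 to 110 CPM in pDC, with 89.6 to 106 in cDC2 and 57.6 to 61.1 in cDC1. These sums lay below the level of Tnfrsf13b alone in pDC. The CPM of these different genes are not divided by exon length, so this sets no bound on B cells. Pax5 and Ebf1, which encode transcription factors that define the B lineage, were not tested and stood at means of 0.165 and 0.192 CPM in pDC, and pDC replicate 3 was listed at 0 for both. Cd79b, a chain of the B cell receptor complex, carried most of the sum in pDC, at 84.1 ± 12.5 CPM (SD, n = 3). Ms4a1, which encodes CD20, stood at 47.6 CPM in cDC1, with 29.2 in cDC2 and 1.13 in pDC. Of 5 plasma cell markers, 4 were higher in pDC than in either conventional subset (Sdc1, Jchain, Xbp1 and Mzb1), with a sum of 745 to 1019 CPM in pDC against 102 to 144 elsewhere. Prdm1, the plasma cell regulator, stood at 0.513 CPM in pDC. Tnfrsf17, the receptor of plasma cells for BAFF and APRIL, had 17, 23 and 0 counts in the pDC libraries and was not tested. The part of B cells and plasma cells in the levels of Tnfrsf13b and Tnfrsf13c was not tested.

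Tnfrsf1a (ENSMUSG00000030341, chr6:125349362-125362484, plus strand) encodes TNF receptor 1, the death domain receptor for soluble TNF. It was among the more even members, at 107, 111 and 113 CPM in cDC1, with 93.9, 94.1 and 94.7 in cDC2 and 70.5, 68.5 and 93.7 in pDC. Replicate 3 stood above the other pDC libraries and next to the cDC2 libraries, without crossing them. Tnfrsf1a was 1.42-fold lower in pDC than in cDC1 (log2 fold change -0.51, SE 0.126, adjusted p = 0.00769). Against cDC2 the difference was -0.28 (SE 0.126, adjusted p = 0.0979), and it passed the threshold with the replicate number as a block (-0.29, adjusted p = 0.0318), without pDC replicate 3 (-0.44, adjusted p = 0.00403) and without the 3 libraries of number 3 (-0.44, adjusted p = 0.00157). The difference between cDC2 and cDC1 was -0.23 (SE 0.126, adjusted p = 0.239), and -0.25 (adjusted p = 0.0291) without number 3.

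Tnfrsf1b (ENSMUSG00000028599, chr4:145213463-145246870, minus strand) encodes TNF receptor 2, which lacks a death domain, binds membrane TNF well and recruits TRAF2. It stood at 265, 196 and 264 CPM in cDC2, with 118, 80.4 and 101 in cDC1 and 73.3, 65.7 and 78.4 in pDC. All cDC2 libraries lay above all others, and the lowest cDC1 library lay just above the highest pDC library. The level was 2.42-fold higher in cDC2 than in cDC1 (log2 fold change 1.28, SE 0.169, adjusted p = 4.27e-04) and 3.33-fold lower in pDC than in cDC2 (-1.74, SE 0.171, adjusted p = 2.42e-05). Between pDC and cDC1 the difference was -0.46 (SE 0.168, adjusted p = 0.0446). That call was lost with limma-voom, with library size only and without number 3 (-0.55, adjusted p = 0.0650), and it held in 4 of 9 fits that each left out 1 library. It was lost without cDC1 replicate 1 or 3, cDC2 replicate 1, or pDC replicate 1 or 2 (adjusted p from 0.0573 to 0.175).

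Summed macrophage markers, like Tnfrsf1b, were highest in cDC2. The 6 markers summed to 575, 429 and 588 CPM in cDC2, with 152, 90.3 and 114 in cDC1 and 119, 24.9 and 143 in pDC. In cDC2, 4 of 6 were higher than in cDC1, against 12.7% of all genes. Vcam1 (72.6 CPM in cDC1, 67.9 in cDC2, adjusted p = 0.928) and Cd5l (7.29 and 13.4, adjusted p = 0.460) were not called. Between pDC and cDC1, 0 of the 6 passed. Replicate 2 was the lowest library of each subset for this sum, for Tnfrsf1b, and for the summed neutrophil and erythroid markers. The NK cell sum was lowest in replicate 2 of cDC1 and pDC and in replicate 1 of cDC2. The T cell sum was lowest in replicate 2 of cDC1 and in replicate 1 of cDC2 and pDC. Adgre1, which encodes F4/80 and which splenic cDC2 can also express, made up most of the sum in cDC2, at 344 ± 41.7 CPM. C1qa and C1qb, complement genes of macrophages, stood at 42.5 ± 16.9 and 48.0 ± 16.2 CPM in cDC2. The part of these cells in the level of Tnfrsf1b was not tested.

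Ltbr (ENSMUSG00000030339, chr6:125306571-125313885, minus strand) encodes the lymphotoxin β receptor, which binds the lymphotoxin α and β heterotrimer and LIGHT. It stood at 52.1, 52.3 and 64.6 CPM in cDC1, with 51.4, 52.2 and 56.2 in cDC2 and 29.6, 27.8 and 35.4 in pDC. The cDC1 and cDC2 libraries overlapped and all pDC libraries lay below them. Ltbr was 1.82-fold lower in pDC than in cDC1 (log2 fold change -0.86, SE 0.134, adjusted p = 4.72e-04) and 1.72-fold lower than in cDC2 (-0.78, SE 0.134, adjusted p = 9.41e-04). The difference between cDC2 and cDC1 was -0.08 (SE 0.132, adjusted p = 0.735), and its sign turned with library size only (0.032). Ltbr lies 35.5 kb from Tnfrsf1a on chromosome 6, on the opposite strand and with 1 protein-coding gene between them.

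Fas (ENSMUSG00000024778, chr19:34290666-34327772, plus strand) encodes the death domain receptor for Fas ligand. It was low in all subsets, at 10.2, 8.67 and 11.1 CPM in cDC1, with 6.56, 5.14 and 9.67 in cDC2 and 1.39, 0.962 and 1.77 in pDC. The pDC libraries lay below all the others, and the cDC1 and cDC2 libraries overlapped. Fas was 7.26-fold lower in pDC than in cDC1 (log2 fold change -2.86, SE 0.325, adjusted p = 5.83e-05) and 5.17-fold lower than in cDC2 (-2.37, SE 0.322, adjusted p = 2.11e-04). Between cDC2 and cDC1 the difference was -0.49 (SE 0.294, adjusted p = 0.285), and -0.72 (adjusted p = 0.0367) without number 3.

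Tnfrsf21 (ENSMUSG00000023915, chr17:43016555-43089189, plus strand) encodes death receptor 6, which carries a death domain and is known from neurons and lymphocytes. It stood at 53.1, 55.1 and 47.3 CPM in cDC1, with 32.6, 31.8 and 38.6 in cDC2 and 7.90, 4.91 and 11.7 in pDC. The subsets did not overlap in any pair. It was 6.37-fold lower in pDC than in cDC1 (log2 fold change -2.67, SE 0.266, adjusted p = 2.25e-05) and 4.21-fold lower than in cDC2 (-2.07, SE 0.261, adjusted p = 1.28e-04). The difference of -0.60 between cDC2 and cDC1 (SE 0.246, adjusted p = 0.115) passed the threshold with the replicate block (-0.62, adjusted p = 0.0471) and without number 3 (-0.78, adjusted p = 0.0124). Counting these, it passed in 4 of 10 alternatives other than leaving out 1 library, and in 2 of the 9 fits that left out 1 library.

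Tnfrsf10b (ENSMUSG00000022074, chr14:69767472-69784411, plus strand) encodes the mouse death receptor for TRAIL and was the lowest member per exon length in each subset. Its counts were 69, 59 and 21 in cDC1, 23, 20 and 9 in cDC2 and 63, 60 and 62 in pDC, which are 2.51, 2.46 and 1.42 CPM, 0.733, 0.700 and 0.478 CPM, and 1.91, 3.04 and 3.65 CPM. The cDC2 libraries lay below all the others, and the cDC1 and pDC libraries overlapped. Tnfrsf10b was 4.41-fold higher in pDC than in cDC2 (log2 fold change 2.14, SE 0.441, adjusted p = 0.00292) and 3.32-fold lower in cDC2 than in cDC1 (-1.73, SE 0.438, adjusted p = 0.0168). The latter call was lost without cDC1 replicate 1 or 2 or cDC2 replicate 1 or 2 (adjusted p from 0.0519 to 0.0739). Between pDC and cDC1 the difference was 0.41 (SE 0.415, adjusted p = 0.448), and -0.062 without number 3. Its counts in cDC2 were few, which adds doubt to the comparisons with cDC2. Of its 75-base stretches, 2.48% also occur in other transcripts, and the part this plays in its counts was not tested.

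Tnfrsf11a (ENSMUSG00000026321, chr1:105780718-105847981, plus strand) encodes RANK, the receptor for RANK ligand, which supports DC survival and bone-resorbing osteoclasts. It stood at 28.4, 28.7 and 22.7 CPM in cDC2, with 18.8, 17.2 and 12.3 in cDC1 and 4.05, 2.99 and 6.01 in pDC. No subsets overlapped. The level was 6.15-fold lower in pDC than in cDC2 (log2 fold change -2.62, SE 0.273, adjusted p = 3.52e-05) and 3.72-fold lower than in cDC1 (-1.90, SE 0.269, adjusted p = 2.56e-04). The difference of 0.72 between cDC2 and cDC1 (SE 0.253, adjusted p = 0.0662) passed the threshold with the replicate block (0.72, adjusted p = 0.0498) and without number 3 (0.63, adjusted p = 0.0111). Counting these, it passed in 6 of 10 alternatives other than leaving out 1 library, and in 2 of the 9 fits that left out 1 library.

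Tnfrsf14 (ENSMUSG00000042333, chr4:154921933-154928563, minus strand) encodes HVEM, which binds LIGHT and the inhibitory receptor BTLA. It stood at 22.1, 26.4 and 28.1 CPM in pDC, with 23.6, 22.1 and 16.4 in cDC1 and 14.2, 13.5 and 13.7 in cDC2. The pDC and cDC1 libraries overlapped and the cDC2 libraries lay below both. It was 1.85-fold higher in pDC than in cDC2 (log2 fold change 0.89, SE 0.167, adjusted p = 0.00170). Between cDC2 and cDC1 the difference was -0.59 (SE 0.167, adjusted p = 0.0281), and this call was lost without cDC1 replicate 1 or 2 or any 1 of the cDC2 libraries (adjusted p from 0.0547 to 0.121) and with library size only (adjusted p = 0.0669). The difference of 0.30 between pDC and cDC1 did not pass (SE 0.166, adjusted p = 0.165), and was 0.050 without number 3.

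**Figure D2:**
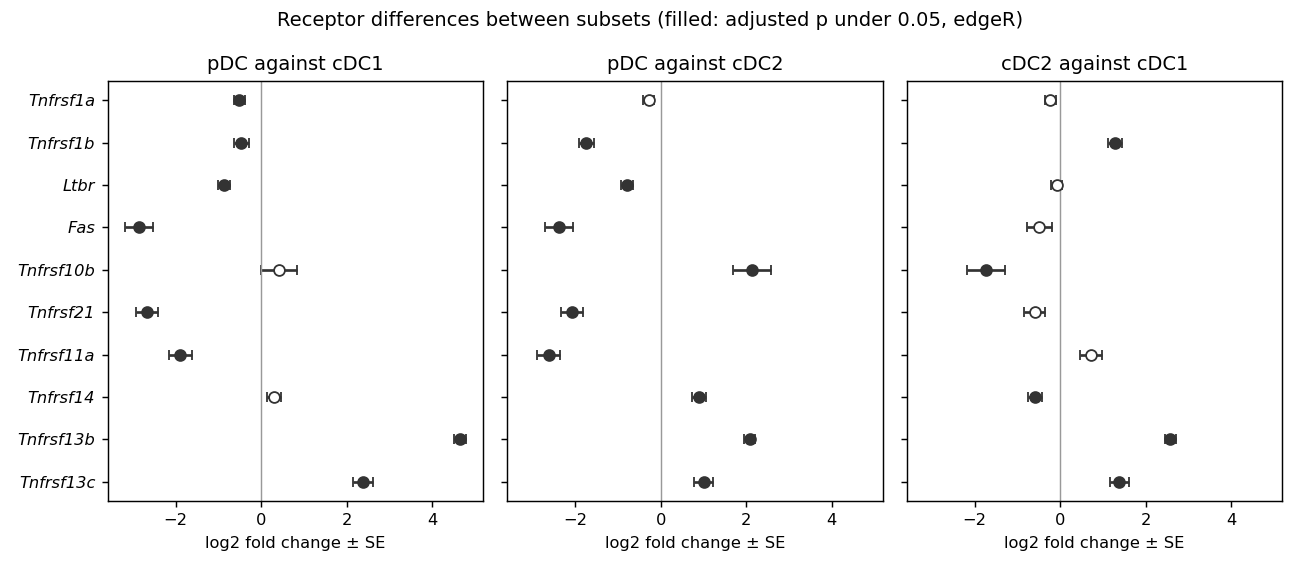
Log2 fold changes of the 10 receptor genes with their SE (horizontal axes) in the 3 comparisons between subsets, from 1 edgeR fit over 9 libraries. Filled points passed an adjusted p of 0.05 and open points did not. Points right of 0 are higher in the subset named first, and Tnfrsf13b lies farthest right in the comparisons with cDC1, at 4.65 and 2.57.

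By comparison, 2 members were higher and 6 lower in pDC than in cDC1. The 2 were Tnfrsf13b and Tnfrsf13c. Over all genes tested, 24.3% were higher and 24.4% lower in that comparison. The members' median log2 fold change was -0.48, and that of all genes was 0.02. Without the 3 libraries of number 3, 7 members passed in place of 8, and the share of all genes was not taken in that fit.

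Against cDC2, 4 members were higher in pDC (Tnfrsf13b, Tnfrsf13c, Tnfrsf10b and Tnfrsf14) and 5 were lower (Tnfrsf1b, Ltbr, Fas, Tnfrsf11a and Tnfrsf21). All genes gave 22.5% higher and 23.3% lower. The median was -0.53 for the members and -0.01 for all genes. Without number 3, all 10 members passed, and the share of all genes was not taken in that fit either.

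Between the conventional subsets, 3 members were higher in cDC2 (Tnfrsf1b, Tnfrsf13b and Tnfrsf13c) and 2 were lower (Tnfrsf10b and Tnfrsf14). The background was 12.7% higher and 11.7% lower, and the medians were -0.15 for the members and 0.03 for all genes. With library size only, the median of all genes moved by 0.11, and 2204 genes were higher and 1287 lower in cDC2, against 1760 and 1610 with TMM factors. The count of members was the least settled of the 3 comparisons, at 7 with the replicate block, 9 without number 3, and 3 without cDC1 replicate 1 or 2 or cDC2 replicate 1 or 2. No share of all genes was taken in those fits. A general gain or loss of calls therefore cannot be told apart from one of the members. Differences among any of the 3 subsets passed in all 10 members, with adjusted p from 2.95e-08 for Tnfrsf13b to 0.0185 for Tnfrsf1a, and in 56.0% of all genes. The 3 comparisons share libraries in pairs, so their counts are not independent of each other.

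Levels of different genes were compared per kb of exon. In pDC, Tnfrsf13b led the members at 170 ± 9.74 CPM per kb (SD, n = 3), followed by Tnfrsf1a at 29.9 ± 5.41. In cDC2, Tnfrsf1b led at 63.3 ± 10.4 CPM per kb and Tnfrsf13b followed at 40.1 ± 1.44. In cDC1, Tnfrsf1a led at 42.6 ± 1.16 CPM per kb, and Tnfrsf13b stood at 6.76 ± 1.12. Neighbours in these orders whose means differed by less than the sum of their SDs were Tnfrsf1b and Ltbr, and Tnfrsf14 and Tnfrsf21, in cDC1. In cDC2 they were Tnfrsf11a, Fas and Tnfrsf13c. In pDC they were Tnfrsf1b and Tnfrsf14, and Tnfrsf11a, Fas and Tnfrsf10b.

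**Figure D3:**
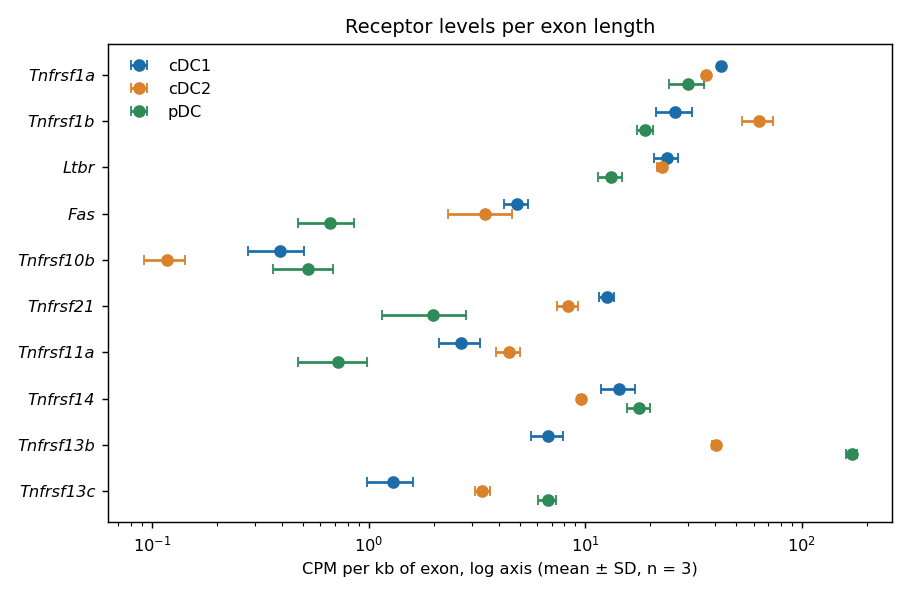
Mean TMM-normalized CPM per kb of exon (horizontal log axis) of the 10 receptor genes, with SD over 3 libraries and a colour for each subset. The leading receptor is Tnfrsf13b in pDC at 170 CPM per kb, Tnfrsf1b in cDC2 at 63.3 and Tnfrsf1a in cDC1 at 42.6.

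Ratios of related receptors within a library do not depend on how libraries were scaled, and 3 were tested by an exact permutation test over 1680 arrangements of the 9 libraries, which can reach 0.00357 (two-sided). The log2 ratio of Tnfrsf13b to Tnfrsf13c counts was 5.29, 5.04 and 5.06 in pDC, 4.17, 4.10 and 3.86 in cDC2 and 2.77, 3.02 and 2.80 in cDC1. The subsets did not overlap, so the BAFF/APRIL receptors kept the same order of subsets but differed in the size of their steps. The exact permutation p was 0.00357, the smallest this test can give, and 0.0107 after adjustment over the 3 ratios.

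The log2 ratio of the TNF receptors, Tnfrsf1b over Tnfrsf1a, was 1.50, 1.06 and 1.48 in cDC2, 0.14, -0.47 and -0.16 in cDC1 and 0.06, -0.06 and -0.26 in pDC. The cDC2 libraries had more counts on Tnfrsf1b than on Tnfrsf1a, while in cDC1 and pDC the ratio lay on either side of 0. These counts are not divided by exon length. Per kb of exon, Tnfrsf1a stood above Tnfrsf1b in cDC1 (42.6 against 26.1 CPM) and in pDC (29.9 against 19.0). The exact permutation p was 0.025, also after adjustment. When subsets were permuted within the replicate number, over 216 arrangements that can reach 0.0278, the exact p was 0.111. The order of cDC1 and pDC at the low end turned without cDC1 replicate 2.

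The log2 ratio of Fas over Tnfrsf10b, both death receptors, was 2.01, 1.81 and 2.94 in cDC1, 3.14, 2.85 and 4.26 in cDC2 and -0.45, -1.63 and -1.04 in pDC. The pDC libraries had fewer counts on Fas than on Tnfrsf10b, and the cDC1 and cDC2 libraries more. The point of equal counts depends on exon length, which is 2062 bases for Fas and 5451 for Tnfrsf10b. Per kb of exon, Fas stood at 0.666 ± 0.195 CPM in pDC and Tnfrsf10b at 0.526 ± 0.162. The exact permutation p was 0.00714 and 0.0107 after adjustment.

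**Figure D4:**
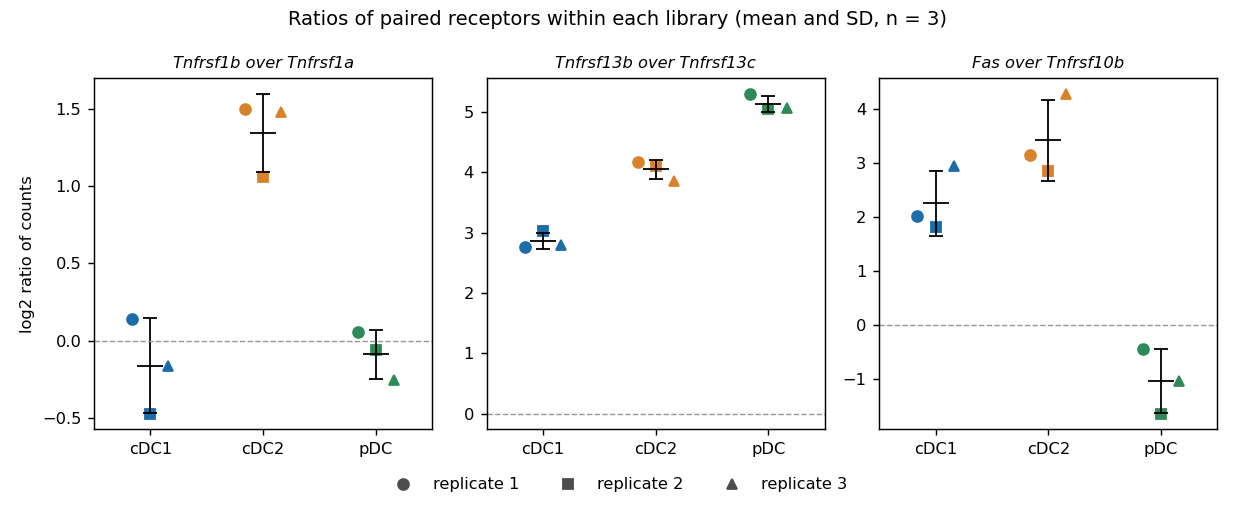
Log2 ratios of counts (vertical axes) of Tnfrsf1b over Tnfrsf1a, Tnfrsf13b over Tnfrsf13c, and Fas over Tnfrsf10b in each library, with mean and SD of 3 libraries per subset and a dashed line at equal counts. The cDC2 libraries stand above the others for the TNF receptors, from 1.06 to 1.50. The pDC libraries are the only ones below 0 in all 3 replicates for Fas over Tnfrsf10b. Counts are not divided by exon length, so the dashed line does not mark equal levels per kb.

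Genes most like 5 of the members over the 9 libraries were listed by the smallest root mean square difference of centred log2 CPM. Nearest to Tnfrsf13b were 4933424M12Rik (0.225), Cybb (0.249) and Gm13476 (0.305). Cybb, which encodes the catalytic subunit of the phagocyte NADPH oxidase, stood at 2108 CPM in pDC, with 649 in cDC2 and 125 in cDC1. Nearest to Tnfrsf13c were Ptp4a3 (0.164), Panx1 (0.169) and Slc44a1 (0.172). Tpm4 (0.0649), Arf6 (0.0650) and Pkm (0.0767) were nearest to Ltbr. Lpcat1 (0.171), Slc25a10 (0.203) and Il18 (0.203) were nearest to Tnfrsf21, and Pola1 (0.190), Fam111a (0.202) and Marcks (0.203) to Tnfrsf11a. The points of these measures share libraries and depth.

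The other 18 receptors of the superfamily were listed beside the members, and 12 had enough counts for a test. In pDC, 3 were higher and 4 lower than in cDC1, with a median log2 fold change of -1.44. Against cDC2, 1 was higher and 7 lower in pDC, with a median of -1.67. Over all genes tested, 24.3% were higher and 24.4% lower in pDC than in cDC1, and 22.5% and 23.3% than in cDC2. Cd40, the receptor for CD40 ligand on antigen-presenting cells, stood at 72.9 ± 10.4 CPM in cDC1, with 92.2 ± 7.14 in cDC2 and 8.51 ± 2.20 in pDC. It was lower in pDC than in cDC1 (-3.10, adjusted p = 1.39e-06) and than in cDC2 (-3.44, adjusted p = 7.92e-07). Relt, a receptor whose ligand is not established, stood at 113 CPM in cDC2, with 30.5 in cDC1 and 39.9 in pDC, and was higher in cDC2 than in cDC1 (1.89, adjusted p = 1.78e-05). Tnfrsf18, which encodes GITR, varied less, from 19.8 CPM in cDC1 to 30.9 in cDC2. Between cDC2 and cDC1, 2 of the 12 were higher and 2 lower, against 12.7% and 11.7% of all genes, with a median of 0.15.

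Of 19 ligands and binding partners, 13 were tested. Against cDC1, 6 were higher and 2 lower in cDC2, with a median log2 fold change of 1.71. Over all genes tested, 12.7% were higher and 11.7% lower. Ltb, which encodes lymphotoxin β, a ligand for the product of Ltbr, stood at 300 ± 26.9 CPM in cDC2, with 51.3 ± 10.9 in cDC1 and 66.7 ± 5.76 in pDC. It was higher in cDC2 than in cDC1 (2.55, adjusted p = 6.51e-06) and lower in pDC than in cDC2 (-2.17, adjusted p = 3.40e-06). Tnfsf14, which encodes LIGHT, a ligand of HVEM and the lymphotoxin β receptor, had a mean of 15.6 CPM in cDC2, with 4.44 in cDC1 and 0.637 in pDC. Btla, whose product binds HVEM, was highest in cDC1, at 436 ± 35.2 CPM, against 72.1 ± 15.4 in cDC2 and 53.3 ± 7.20 in pDC.

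Tnf stood at 23.5 ± 15.1 CPM in cDC1, with 41.9 ± 16.6 in cDC2 and 13.7 ± 6.24 in pDC. Replicate 3 was the highest library of each subset for Tnf, at 40.8, 60.8 and 20.9 CPM in the same order. Of the comparisons of Tnf, the one of pDC with cDC2 passed (-1.62, adjusted p = 0.0197). Tnfsf10, which encodes TRAIL, stood at 0.920 CPM in cDC1, with 7.77 in cDC2 and 9.10 in pDC. Tnfsf13b, the gene for BAFF, had a mean of 1.28 CPM in cDC1, with 0.627 in cDC2 and 0.0943 in pDC, where its counts were 6, 2 and 0. Tnfsf13, the gene for APRIL, passed no comparison. Fasl, the gene for Fas ligand, stood at 3.38 ± 0.923 CPM in cDC2, and in cDC1 and pDC its means, 0.092 and 0.0504 CPM, were below the floor. NK cell markers were also highest in cDC2, where the 5 summed to 19.8 to 78.1 CPM, against 8.21 to 26.9 in cDC1 and 9.52 to 41.8 in pDC. Of these 5, 1 was higher in cDC2 than in cDC1, against 12.7% of all genes. The part of NK cells, which the CD49b stain of the sort marks, in the level of Fasl was not tested. In pDC, 7 ligands were lower than in cDC2, against 23.3% of all genes, with a median of -1.99. Against cDC1, Tnfsf10 was higher in pDC and 4 ligands were lower, with a median of -0.61. Over all genes tested, 24.3% were higher and 24.4% lower. With the replicate block, 2 ligands were higher in pDC than in cDC1.

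All 24 genes of proximal signalling were tested. In pDC, 3 were higher and 13 lower than in cDC2, with a median log2 fold change of -0.46, and 3 were higher and 5 lower than in cDC1, with a median of -0.17. In cDC2, 9 were higher and 1 lower than in cDC1, with a median of 0.27. Over all genes tested, 22.5% were higher and 23.3% lower in pDC than in cDC2, and 24.3% and 24.4% than in cDC1. In cDC2, 12.7% of all genes were higher and 11.7% lower than in cDC1. With the replicate block, 5 signalling genes were higher and 14 lower in pDC than in cDC2, and 5 higher and 7 lower than in cDC1. In cDC2, the block gave 12 signalling genes higher and 2 lower than in cDC1. The share of all genes was not taken with the block, so a general gain in calls cannot be told apart from one of this list. With library size only, 5 were higher and 3 lower in pDC than in cDC1, so the balance turned. All genes tested shifted the same way with that scaling, to 3801 higher and 3015 lower, against 3352 and 3366 with TMM factors. Traf1, an adaptor that pairs with TRAF2, stood at 350 ± 25.5 CPM in cDC2, with 205 ± 35.9 in cDC1 and 38.4 ± 3.33 in pDC. Traf4 showed the opposite pattern, at 67.7 ± 3.85 CPM in pDC, with 8.31 ± 1.65 in cDC1 and 6.15 ± 0.966 in cDC2. Map3k14, which encodes the NF-κB-inducing kinase of the alternative pathway, stood at 178 CPM in cDC2, with 96.6 in cDC1 and 56.2 in pDC. Casp8, the caspase of the death receptors, stood at 68.7, 77.4 and 78.8 CPM in cDC1, cDC2 and pDC and passed no comparison. Tnfaip3, which encodes the NF-κB inhibitor A20, was higher in pDC than in cDC1 (0.89, adjusted p = 0.00413).

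**Figure D5:**
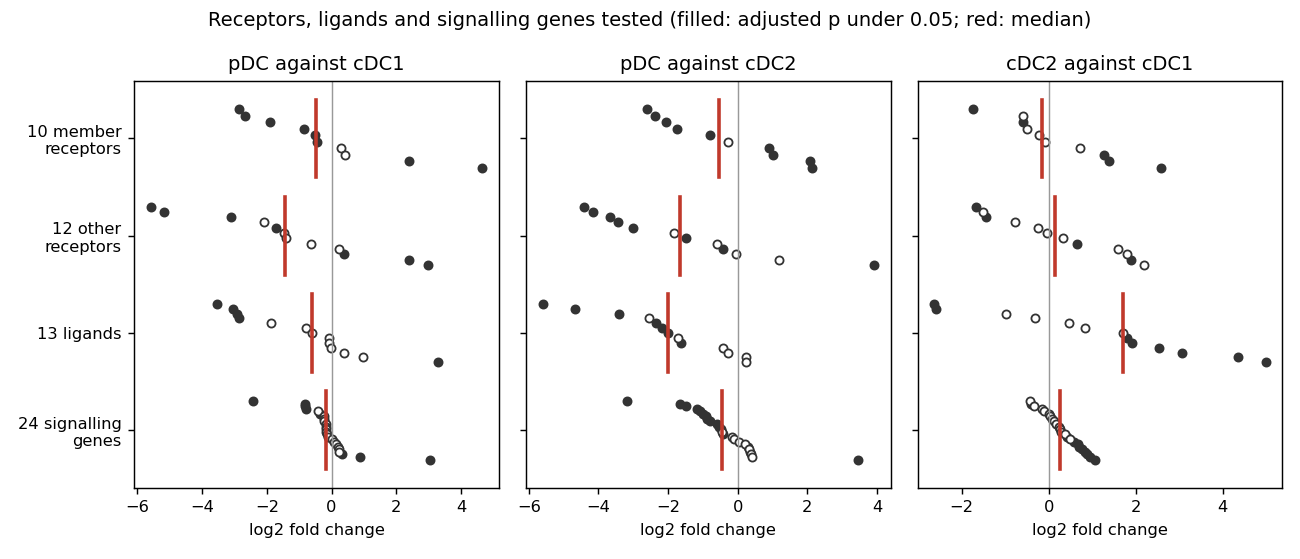
Log2 fold changes (horizontal axes) of the genes tested among the 10 members, 12 other receptors, 13 ligands and 24 proximal signalling genes in the 3 comparisons. Each point is a gene, filled where the adjusted p was under 0.05, and red lines are medians, which for the ligands lie at -0.61, -1.99 and 1.71.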

How the data were processed

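RNA was made into stranded libraries of polyadenylated RNA and read from a single end over 75 bases. The authors deposited raw read counts per gene, not normalized. The submitters' processing notes list STAR, SAMtools, MultiQC, featureCounts and the mm10 build, and their versions, the annotation and whether counting used the strand are not given in the sources used here. Libraries were grouped by their labels. All columns of counts were used.

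The test was that of edgeR 4.0.16 in R 4.3.3 (filterByExpr with a minimum count of 10, TMM factors, quasi-likelihood test). A single fit held all 9 libraries and a term for the subset alone, since the study's methods name no block. Adjusted p-values are Benjamini-Hochberg values over the 13819 genes tested, and the threshold was 0.05. SE values were derived from the F statistic. CPM is the count scaled to a TMM-adjusted total of 1000000, and exon lengths come from GENCODE M21 on GRCm38. Ratios of counts used a pseudocount of 0.5. The likeness measure used edgeR's log2 CPM with a prior count of 2.

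The same replicate number carries the same date code in the 3 subsets, so the numbers were read as pairing the libraries. Deviations of same-numbered libraries from their subset means correlated in all 9 pairs (0.266 to 0.543 over genes). Pairs of different numbers were not compared, so this check alone does not show the pairing. The fit with the replicate number as a block is given where it changed a call. Replicates differed by more than sampling noise (chi-square per degree of freedom 10.6 to 67.7 over genes), so each counted as a sample.

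The members and the gene lists were chosen with earlier results of these data known. Genes named are the 10 members, the genes of the lists, the markers, the immediate-early and heat-shock genes, and the 3 genes most like each of 5 members. Of the list genes, 4 were read under older names. Alternatives were the block, DESeq2 1.42.0, limma-voom (limma 3.58.1), other scalings, filters and thresholds, the 6 libraries compared, and each library left out. The value of 1 marker gene is not reported here. The scripts were tested on simulated data. Figures used matplotlib 3.10.9 (Python 3.11.15).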

Additional observations from a re-analysis of the deposited data

How the results depend on the processing

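Each member was read in each comparison of the alternative fits, which gave 567 values. Of these, 528 kept both direction and side of the threshold, 18 lost a call, 19 gained one and 2 turned direction. Alternatives that only changed the threshold are not in these counts. The turns were Tnfrsf10b between pDC and cDC1 without all libraries of number 3 (-0.062, an alternative chosen after seeing the data) and Ltbr between cDC2 and cDC1 with library size only (0.032), and neither was a call. The number of members past the threshold was 8 for pDC against cDC1 (7 to 8 with each library left out, 5 when a log2 fold change of 1 or more in size was also asked). For pDC against cDC2 it was 9 (9 to 10 with each library left out). For cDC2 against cDC1 it was 5 (3 to 7 with each library left out, 3 at an adjusted p of 0.01, 9 without number 3). With the replicate block the counts were 8, 10 and 7. The block and leave-out fits have no share of all genes beside these counts, so a general change in calls may enter them. The span of subset means of the log2 ratio of Tnfrsf1b over Tnfrsf1a was 1.51 (1.43 to 1.66 with each library left out), and under the replicate block the span of 1.51 no longer passed (exact permutation p = 0.111). The spans were 2.27 for Tnfrsf13b over Tnfrsf13c (2.19 to 2.35) and 4.45 for Fas over Tnfrsf10b (4.03 to 4.75), and both passed in every alternative run. The block changed no other call of a member or ratio than these and those given with the results. Of 54 counts over the other receptors, ligands and signalling genes under 3 alternatives, 38 stayed close to the reported count and 16 moved further. The cause of these changes was not tested, except that a stricter threshold passes fewer genes by construction. Depth limits Tnfrsf10b, with 9 to 23 counts in the cDC2 libraries. The cause of the genes listed at 0 in replicate 3 of cDC2 and pDC was not tested, and the shallowest library, cDC1 replicate 3, had 2.18% of such genes at 0.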
